A study of Mus musculus with 10 samples.

Results

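Of the 37417 genes in the raw count table, 9 were taken as leukocyte adhesion molecules: the selectins Sele and Selp, the selectin ligand Selplg, the immunoglobulin-family molecules Icam1, Icam2 and Vcam1, and the integrin chains Itgal, Itgam and Itgb2. They were chosen by name, as rows whose Ensembl mouse identifier maps to these symbols, and all 9 were found. The rule uses names only, not levels.

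Panc02, a cell line of mouse pancreatic cancer, was grown under the skin of the right flank of C57BL/6J mice aged 12 weeks with a wild-type genotype, and the tumors were taken on day 16. Both groups of cells carried lentiviral vectors with a doxycycline-inducible Cas9, were selected in bulk and were exposed to doxycycline in culture. In the 5 sgCda tumors the cancer cells had a guide RNA that targets Cda (cytidine deaminase, which turns cytidine into uridine), and in the 5 sgNT tumors they had a nontargeting guide. The guide acts in the injected cells only, so host vessels and host leukocytes were not edited, and whole-tumor RNA mixes all of these cells.

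Leukocytes leave the blood in steps. E-selectin and P-selectin on activated endothelium capture leukocytes through glycosylated ligands such as PSGL-1, rolling cells then receive chemokine signals, and activated integrins hold them firmly on ICAM and VCAM molecules before they cross the vessel wall. In tumors, these molecules are known as a gate for T cells and myeloid cells, and ICAM-1 and VCAM-1 are also made outside vessels, by leukocytes, stromal cells and some cancer cells.

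A 250-base window upstream of the RefSeq start was held for 4 of the 9 genes (GRCm38.p6, all on the plus strand), and these windows are shown because they carry letters of the kind that cytokine-driven endothelial genes and myeloid genes are known for. In the first 3, capitals mark a loose form of the NF-kB site, GGG and CC parted by any 5 bases, read on either strand. In Itgam, capitals mark GAGGAA, the purine-rich core read by PU.1 and other ETS factors, on either strand. The windows are chr1:164047984-164048233 for Sele, chr1:164115014-164115263 for Selp, chr9:21015690-21015939 for Icam1 and chr7:128062390-128062639 for Itgam.
Sele: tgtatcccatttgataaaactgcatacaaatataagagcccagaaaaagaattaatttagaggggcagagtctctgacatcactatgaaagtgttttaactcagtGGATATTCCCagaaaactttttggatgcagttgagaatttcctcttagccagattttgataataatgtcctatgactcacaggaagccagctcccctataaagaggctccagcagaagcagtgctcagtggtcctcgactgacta
Selp: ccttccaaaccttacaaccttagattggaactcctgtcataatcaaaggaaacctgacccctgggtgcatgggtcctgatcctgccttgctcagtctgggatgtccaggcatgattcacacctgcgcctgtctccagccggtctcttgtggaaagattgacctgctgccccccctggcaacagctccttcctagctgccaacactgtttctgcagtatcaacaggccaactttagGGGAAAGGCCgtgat
Icam1: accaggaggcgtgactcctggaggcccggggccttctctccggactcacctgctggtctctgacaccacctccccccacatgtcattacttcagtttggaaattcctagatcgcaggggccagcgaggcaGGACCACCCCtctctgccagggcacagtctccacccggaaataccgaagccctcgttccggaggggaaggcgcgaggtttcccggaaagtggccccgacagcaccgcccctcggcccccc
Itgam: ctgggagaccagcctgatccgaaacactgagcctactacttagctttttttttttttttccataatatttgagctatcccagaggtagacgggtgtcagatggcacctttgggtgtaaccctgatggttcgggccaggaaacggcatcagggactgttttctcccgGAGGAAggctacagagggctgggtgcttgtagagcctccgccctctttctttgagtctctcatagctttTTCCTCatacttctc
This NF-kB form occurred on either strand in 45.8% of 32851 such windows and GAGGAA in 23.3%, so neither sets these genes apart. The Itgam window also held the NF-kB form, in overlapping copies on both strands, and the Sele window also held GAGGAA, on its minus strand. Sele alone of the 4 had TATAAA, found in 12.4% of windows. A match is a string of letters and shows no binding, and sites that differ from these forms were not searched for or marked.

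Libraries held 28051907 to 39484964 counts assigned to genes. The first principal component of all genes took 40.7% of the variance, with sgCda 3 (score 58.3) and sgCda 4 (score -56.4) at its ends, so these libraries stood farthest from the rest. In sgCda 4, which also had the fewest assigned counts, 18.4% of uniquely aligned reads fell in no gene, beside 10.3% to 14.9% in the other 9 tumors. Skeletal muscle markers, a tissue next to the flank, summed to 1585 CPM in sgCda 3 and to 0.823 to 384 CPM in the other 9 tumors. Cda, the targeted gene, gave 10.1, 11.7, 12.8, 14.7 and 11.1 CPM (read counts scaled to library size with TMM factors) in sgNT 1 to 5 and 8.34, 8.43, 12.1, 7.47 and 12.5 CPM in sgCda 1 to 5. The groups overlapped, and the difference did not pass the test (log2 fold change -0.30, SE 0.17, 95% CI -0.67 to 0.06, adjusted p = 0.9996, edgeR quasi-likelihood test with Benjamini-Hochberg adjustment). An edited gene can still be transcribed and host cells add their own Cda reads, so this level says little about editing.

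No adhesion molecule passed the test between sgCda and sgNT tumors. Of the 8 that were tested, 7 had a log2 fold change below 0, as had 47.1% of all genes, and Selp lay farthest from 0. With an adjusted p under 0.05 as the call, edgeR called 0 of 8 members, beside 0 of 15299 genes tested (0%). At an unadjusted p under 0.05 it gave 0 of 8 members, beside 382 genes (2.50%). In 0 of 8 members the 5 sgCda values lay wholly above or below the 5 sgNT values, which held for 0.601% of all genes. The members' log2 fold changes (sgCda over sgNT) ran from -0.62 to 0.07 with a median of -0.06, and the median over all genes was 0.01. In bulk tumors, fewer cells of a type and less RNA per cell cannot be told apart. The labels do not say whether the injected cells came from separate cultures, so p-values measure the spread between these tumors.

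**Figure D1:**
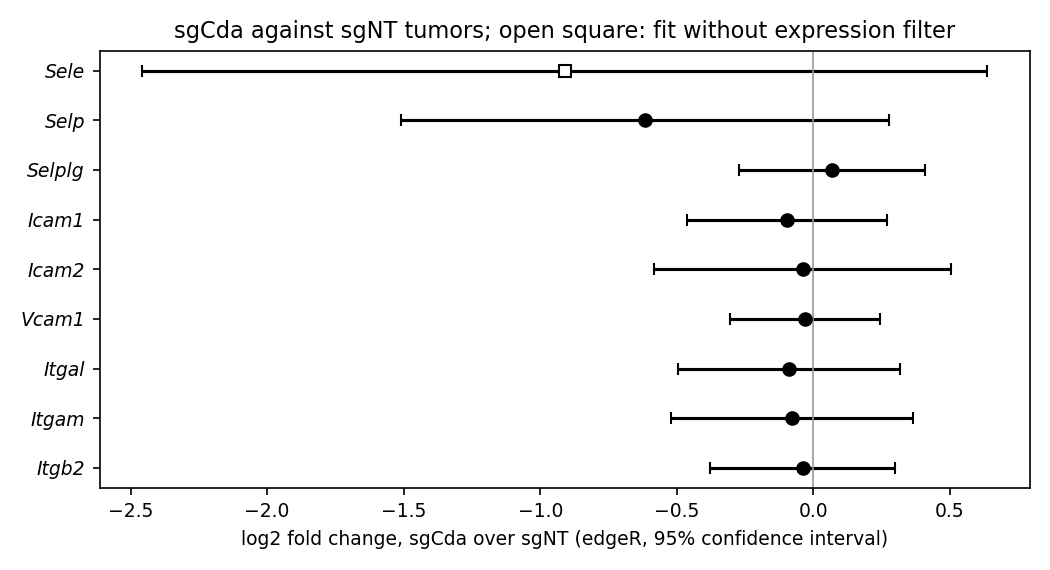
Log2 fold change of each adhesion gene, sgCda over sgNT tumors, with its 95% confidence interval (edgeR, 5 tumors per group, filled circles); the open square is Sele, which was fitted without the filter on low counts. All 9 intervals include 0, and the selectins have the widest.

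The levels spanned a wide range once divided by exon length, taken as all annotated exons of a gene joined. This length is 8870 bases for Vcam1 and 3052 for Itgb2. A gene whose main transcript is shorter than its joined exons reads too low, so the order below depends on this choice of length. Itgb2 (chr10:77530252-77565708) was the most abundant member per length at 71.3 ± 13.1 CPM per kilobase (SD, n = 10 tumors, both groups). It encodes the beta chain that LFA-1 and Mac-1 share. Itgam followed with 37.8 ± 9.55 CPM per kilobase, then Vcam1 with 28.9 ± 4.21, Selplg with 25.98 ± 4.92 and Itgal with 20.9 ± 4.60. Among these 5 genes the ranges of neighbours overlapped, although the order held within 10 of 10 tumors for Itgb2 over Itgam, 9 for Itgam over Vcam1, 8 for Vcam1 over Selplg and 10 for Selplg over Itgal. Below them came Icam1 with 9.41 ± 1.84 CPM per kilobase and Icam2 with 2.30 ± 0.645, each with a range apart from those of its neighbours. The selectins were lowest, with Selp at 0.355 ± 0.166 and Sele at 0.119 ± 0.104 CPM per kilobase. Their ranges overlapped, but Selp was the higher of the pair in 10 of 10 tumors.

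**Figure D2:**
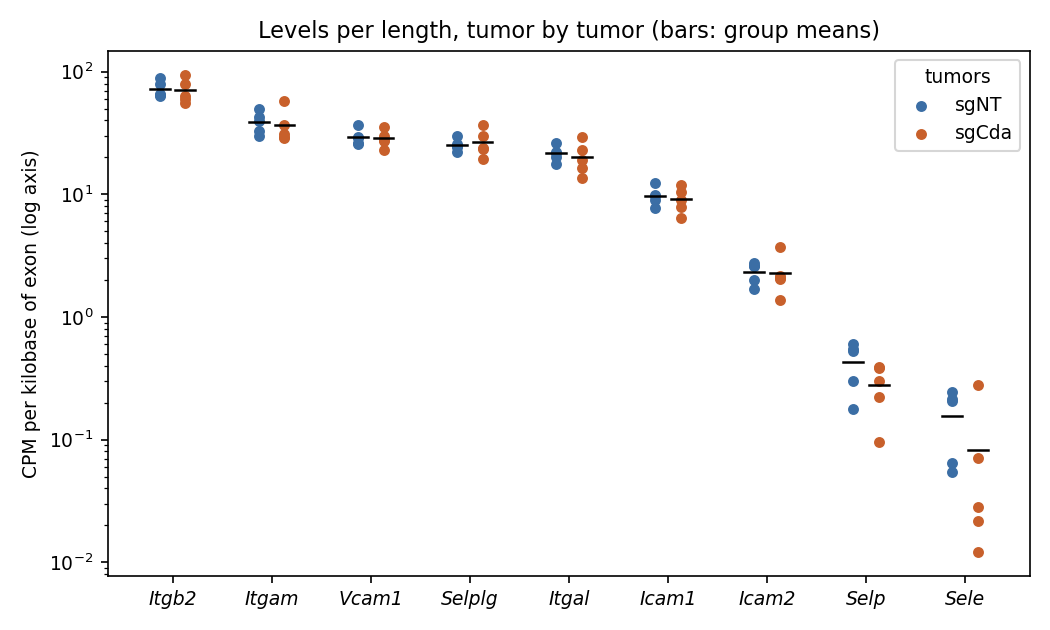
CPM per kilobase of exon (log axis, all annotated exons joined) of the 9 adhesion genes in 5 sgNT and 5 sgCda tumors, with group means as bars. Leukocyte integrin chains, Vcam1 and Selplg lie above the other ICAM genes, and Selp and Sele lie lowest.

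P-selectin, encoded by Selp (chr1:164115264-164150026), is stored in endothelial and platelet granules and moves to the surface within minutes of activation. Selp measured 2.43, 0.790, 1.33, 2.64 and 2.31 CPM in sgNT 1 to 5 and 1.72, 1.33, 1.71, 0.425 and 0.981 CPM in sgCda 1 to 5, from 12 to 92 counts per tumor. All 5 sgCda tumors lay below the sgNT mean, but sgNT 2 and sgNT 3 lay within the sgCda range, so the groups overlapped. The means were 1.90 ± 0.798 CPM in sgNT against 1.23 ± 0.545 CPM in sgCda (n = 5 each, SD). This gave a log2 fold change of -0.62 (SE 0.41, adjusted p = 0.9996 in edgeR with Benjamini-Hochberg adjustment, unadjusted p = 0.158), the farthest from 0 of the 8 tested members, and it was -0.40 without sgCda 4 and -0.76 without sgCda 3. Its 95% CI, -1.51 to 0.28, spans from 64.9% lower to 21.2% higher in sgCda tumors, so sizes within that range could not be told apart with these tumors and counts.

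E-selectin, encoded by Sele (chr1:164048234-164057677), is made by endothelium mainly after cytokine stimulation. Sele counts were 21, 5, 6, 19 and 25 in sgNT 1 to 5 and 7, 3, 29, 1 and 2 in sgCda 1 to 5, 118 in all, and the gene did not pass the filter on low counts. In CPM these were 0.708, 0.158, 0.186, 0.597 and 0.628 in sgNT tumors and 0.204, 0.0816, 0.811, 0.0354 and 0.0633 in sgCda tumors. The highest value of all was in sgCda 3 and the 3 lowest were in sgCda 2, sgCda 4 and sgCda 5, each at or under 3 counts, the least that is read as a level here. Fitted without the filter, Sele had a log2 fold change of -0.91 (SE 0.72, 95% CI -2.46 to 0.64, adjusted p = 0.862, edgeR with Benjamini-Hochberg adjustment). Sele passed the filter in 6 of the 10 fits that left out 1 tumor, with log2 fold changes of -1.10 to -0.63 and no unadjusted p below 0.178. When sgCda 3 and sgCda 4 were both left out, a choice made after seeing the data, it had a log2 fold change of -1.94 (unadjusted p = 0.0150, adjusted p = 0.996, edgeR with Benjamini-Hochberg adjustment), still short of a call. In that fit 519 genes had an unadjusted p under 0.05.

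PSGL-1, encoded by Selplg (chr5:113818536-113832644), is the main leukocyte ligand of P-selectin. Selplg gave 104, 93.9, 128, 107 and 109 CPM in sgNT 1 to 5 and 101, 128, 156, 99.8 and 82.8 CPM in sgCda 1 to 5. The sgCda tumors held both the highest and the lowest value and enclosed all sgNT values. A log2 fold change of 0.07 was found (SE 0.16, 95% CI -0.27 to 0.41, adjusted p = 0.9996, edgeR with Benjamini-Hochberg adjustment), the sole value above 0 among the tested members. Without sgCda 3 it was -0.07, so its sign rested on that tumor.

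Among the endothelial integrin ligands, ICAM-1 is induced by cytokines and binds LFA-1 and Mac-1. Icam1 (chr9:21015985-21028817) gave 43.1, 33.6, 53.7, 42.2 and 39.5 CPM in sgNT 1 to 5 and 38.9, 45.9, 51.5, 34.4 and 27.8 CPM in sgCda 1 to 5. The groups overlapped except for sgCda 5, which was lower than every sgNT tumor. Means of 42.4 ± 7.29 and 39.7 ± 9.30 CPM (n = 5 each, SD) gave a log2 fold change of -0.10 (SE 0.17, 95% CI -0.46 to 0.27, adjusted p = 0.9996, edgeR with Benjamini-Hochberg adjustment).

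ICAM-2 is a constitutive ligand of LFA-1 on resting endothelium. Icam2 (chr11:106377656-106388075, minus strand) gave 3.84, 3.22, 4.96, 5.25 and 4.93 CPM in sgNT 1 to 5 and 3.91, 4.08, 7.02, 2.62 and 3.96 CPM in sgCda 1 to 5. The extremes were sgCda 3 and sgCda 4, and the other sgCda tumors lay within the sgNT range. It had a log2 fold change of -0.04 (SE 0.25, 95% CI -0.58 to 0.51).

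VCAM-1 binds the integrin VLA-4 on lymphocytes and monocytes. Vcam1 (chr3:116109949-116129688, minus strand) gave 230, 258, 324, 255 and 230 CPM in sgNT 1 to 5 and 248, 265, 202, 314 and 241 CPM in sgCda 1 to 5. Here sgCda 3 was the lowest tumor and sgCda 4 the second highest, the reverse of Icam2. Vcam1 had the narrowest interval of the 8 tested members, a log2 fold change of -0.03 (SE 0.13, 95% CI -0.31 to 0.25), which spans 19.1% lower to 18.5% higher.

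The leukocyte integrins form heterodimers, LFA-1 from the alpha chain of Itgal and Mac-1 from that of Itgam, each with the beta chain of Itgb2. Itgal (chr7:127296260-127335138), carried by most leukocytes and used by T cells for arrest on ICAM-1, gave 143, 132, 173, 144 and 116 CPM in sgNT 1 to 5 and 125, 152, 191, 108 and 89.8 CPM in sgCda 1 to 5. Itgam (chr7:128062640-128118491), the CD11b chain of myeloid cells, gave 197, 165, 248, 215 and 150 CPM in sgNT 1 to 5 and 157, 185, 288, 149 and 146 CPM in sgCda 1 to 5. In both genes sgCda 3 was the highest tumor and sgCda 5 the lowest. Itgb2 gave 201, 194, 269, 242 and 198 CPM in sgNT 1 to 5 and 193, 243, 289, 181 and 169 CPM in sgCda 1 to 5. It had the same highest and lowest tumor. Fold changes of the 3 chains were near 0, at -0.09 for Itgal (SE 0.19, 95% CI -0.50 to 0.32), -0.08 for Itgam (SE 0.20, 95% CI -0.52 to 0.36) and -0.04 for Itgb2 (SE 0.15, 95% CI -0.38 to 0.30) on the log2 scale. Itgam shares 3450 exonic bases with Gm49368 on its strand. That gene has no row in the count table, although the table keeps 11115 genes without a count. Genes on the opposite strand overlap Icam1 by 511 bases, Vcam1 by 61 and Selp by 624. Whether counting used strand is not given in the sources used here, so reads of such partners could not be told apart, although those in the table beside Selp had 7 counts in all.

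**Figure D3:**
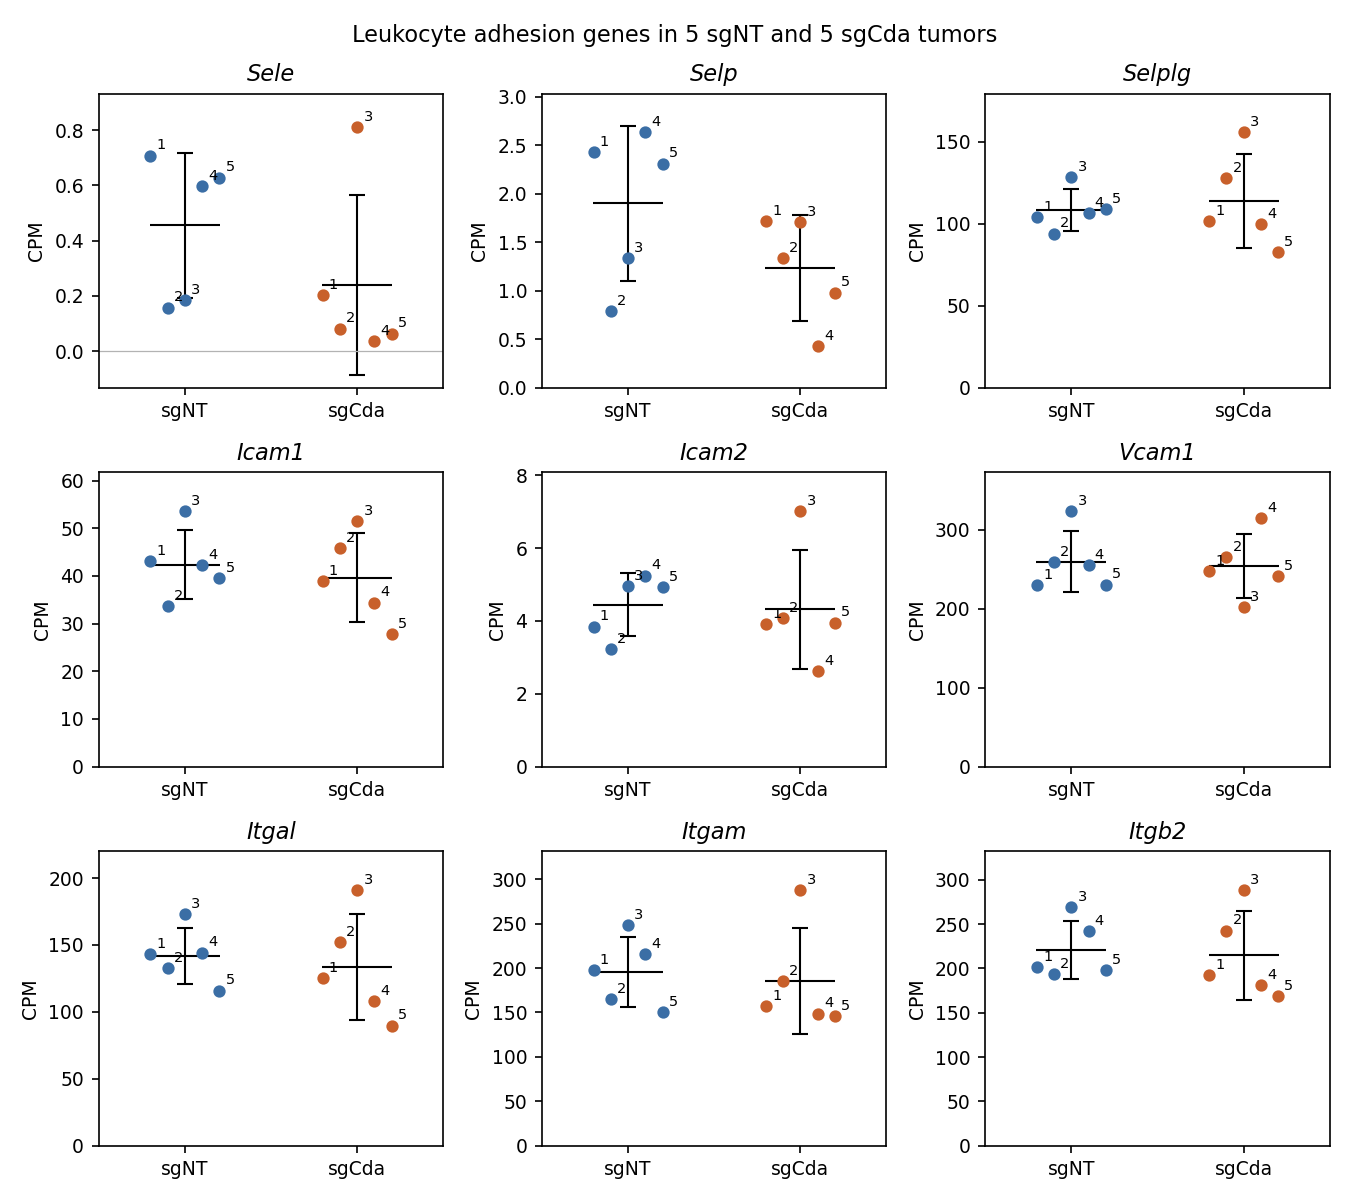
CPM of each adhesion gene in 5 sgNT (blue) and 5 sgCda (orange) tumors, with replicate numbers, group means (long bars) and SDs (whiskers, which reach below 0 for Sele in sgCda tumors because 1 tumor is high). In every panel the groups overlap, and sgCda 3 is the highest tumor for Sele, Selplg, Icam2, Itgal, Itgam and Itgb2.

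Tumors differed more in these genes than the groups did. The SD of log2 CPM over the 10 tumors had a median of 0.31 among the 8 tested members, beside 0.20 among all genes. Ranked among 500 genes of like expression, the SD of Itgam stood at percentile 94.8, Itgal at 93.8, Icam1 at 91.8 and Selplg at 91.6, and that of Icam2 at 63.6. The coefficient of variation was larger in sgCda than in sgNT tumors for all 9 genes, such as 44.2% against 42.0% for Selp and 136% against 57.6% for Sele, but so it was for 76.9% of all genes tested. Without sgCda 3 and sgCda 4, a choice made after seeing the data, it was larger in sgCda for 5 of the 9 members and for 37.6% of all genes. Leaving out the tumors farthest from the rest lowers the spread of a group by itself, so this cannot show what the wider spread rested on. Tumor sgCda 3 was the highest of the 10 for 5 of the 8 members and the lowest for Vcam1, and sgCda 5 was the lowest for 5. Within sgNT, tumor 3 was the highest for Icam1 and Vcam1 and exceeded the 10-tumor mean by 0.23 to 0.42 log2 units in 7 of the 8 genes, Selp being the exception at -0.05.

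**Figure D4:**
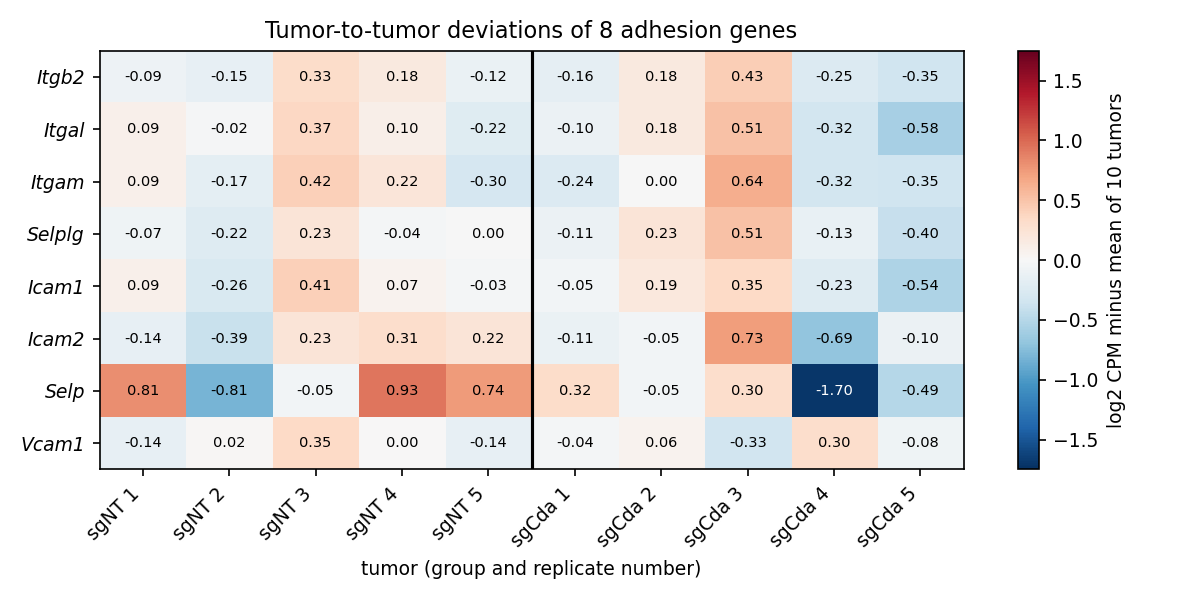
Log2 CPM of 8 adhesion genes in each tumor minus the gene's mean over 10 tumors, printed in each cell and coloured from blue (lower) to red (higher); the black line parts sgNT from sgCda tumors. The integrin chains, Selplg and Icam1 are high together in sgNT 3 and sgCda 3 and low together in sgCda 4 and sgCda 5, Selp has its own pattern with -1.70 in sgCda 4, and Vcam1 is lowest in sgCda 3.

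To set this variation beside markers of cell types, members were compared with the mean log2 CPM of marker lists that hold none of them. No list passed the two-sided exact permutation test between groups, which can go down to p = 0.00794 with 5 against 5 tumors, and none was at 0. Endothelial markers had a score of 3.35 ± 0.27 in sgNT against 3.16 ± 0.31 in sgCda tumors (n = 5 each, SD, two-sided exact permutation p = 0.294) with a summed level of 112 to 167 and 97.6 to 161 CPM, and all 10 of its genes passed the filter. Macrophage markers were at 8.02 ± 0.18 and 8.02 ± 0.21, with all 8 genes and summed levels of 3132 to 4420 and 3123 to 4448 CPM. T cell markers were at 5.08 ± 0.27 and 5.10 ± 0.65, with all 10 genes and summed levels of 374 to 598 and 284 to 906 CPM. Their part in the results on adhesion genes was not tested.

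Of 18 relations between members, or of members with marker scores, 9 are given over all 10 tumors, and 6 of these passed at an adjusted p under 0.05 (permutation test of Pearson's r with 100000 resamples, two-sided, Benjamini-Hochberg over 18). The other 9 are not given as a pooled r because Itgb2, Sele or the endothelial score fell into separate sets of tumors, split 6 and 4 or 5 and 5. All points share their libraries and depth.

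Selplg rose with the pan-leukocyte score (r = 0.91, permutation p = 0.00015, adjusted p = 0.000495; rho = 0.88, permutation p = 0.0017). Without the 2 tumors farthest from the median of that score r was 0.95. Itgal rose with the T cell score (r = 0.92, permutation p = 0.00021; rho = 0.94; r = 0.88 without the 2 farthest tumors). Icam1 rose with the macrophage score (r = 0.93, permutation p = 8e-05; rho = 0.99, p = 1e-05, the smallest these permutations can give; r = 0.87 without the 2 farthest). It also rose with Itgal, the alpha chain of its receptor LFA-1 (r = 0.93, permutation p = 0.00019; rho = 0.89; r = 0.85 without the 2 farthest). Both relations of Icam1 that passed were with leukocyte genes, and bulk reads do not show which cells made Icam1. The pan-leukocyte, T cell and macrophage scores moved together. Each was highest in sgNT 3, sgCda 2 and sgCda 3 and low in sgCda 4 and sgCda 5. T cell scores there were 5.52, 5.37, 6.05, 4.54 and 4.49, and macrophage scores 8.29, 8.24, 8.25, 7.83 and 7.82. Genes were set against chosen lists only, so these r do not show which leukocyte type a gene went with.

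Itgam rose with the macrophage score (r = 0.79, permutation p = 0.00748, adjusted p = 0.0122; rho = 0.81) and declined with the neutrophil score (r = -0.72, permutation p = 0.0188, adjusted p = 0.026; rho = -0.65, adjusted p = 0.0634). Neither held without the 2 farthest tumors. There r was 0.56 (permutation p = 0.146) without sgCda 3 and sgNT 3 for macrophages, and -0.28 (permutation p = 0.513) without sgCda 3 and sgNT 4 for neutrophils. Dropping the farthest tumors also narrows the range of the score, so a smaller r does not show that a relation rests on them. On leaving out 1 tumor, r was 0.74 to 0.87 with the macrophage score and -0.91 to -0.47 with the neutrophil score. Of the 8 neutrophil markers, Ly6g and Stfa2l1 did not pass the filter. For Itgb2, 6 tumors formed the lower set, in which r was 0.92 with Itgal (exact permutation p = 0.0111), 0.66 with Itgam (exact permutation p = 0.158) and 0.80 with the pan-leukocyte score (exact permutation p = 0.0472). The 4 tumors above were too few for a value.

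Vcam1 did not share this pattern. Its r was -0.01 with Icam1 (permutation p = 0.986) and -0.61 with the fibroblast score (permutation p = 0.061, adjusted p = 0.0732; rho = -0.55; r = -0.40 without the 2 farthest tumors). Without sgCda 3 the latter became -0.91 (adjusted permutation p = 0.00263), so 1 tumor decided whether it passed. Selp showed no relation that passed with the platelet score (r = 0.15, permutation p = 0.667; rho = -0.03), and of the 7 platelet markers Gp9 and Treml1 did not pass the filter.

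Listed in order of the endothelial score, from 2.88 to 3.59, the tumors ran sgCda 4, sgCda 2, sgNT 2, sgCda 5, sgNT 3, sgCda 1, sgNT 1, sgNT 4, sgNT 5 and sgCda 3. In that order Sele was 0.0354, 0.0816, 0.158, 0.0633, 0.186, 0.204, 0.708, 0.597, 0.628 and 0.811 CPM. Both ends of the order are sgCda tumors, and Sele was highest in the last. Its values in sgCda 4, sgCda 2 and sgCda 5 were at or under 3 counts, so they are not ranked among themselves. In the same order Selp was 0.425, 1.33, 0.790, 0.981, 1.33, 1.72, 2.43, 2.64, 2.31 and 1.71 CPM. Vcam1 in that order was 314, 265, 258, 241, 324, 248, 230, 255, 230 and 202 CPM, lowest where Sele was highest, with its highest value midway, in sgNT 3. The order is a description, and the part of vessel content, or of the high share of reads in no gene in sgCda 4, in the lower mean of Selp in sgCda tumors was not tested.

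**Figure D5:**
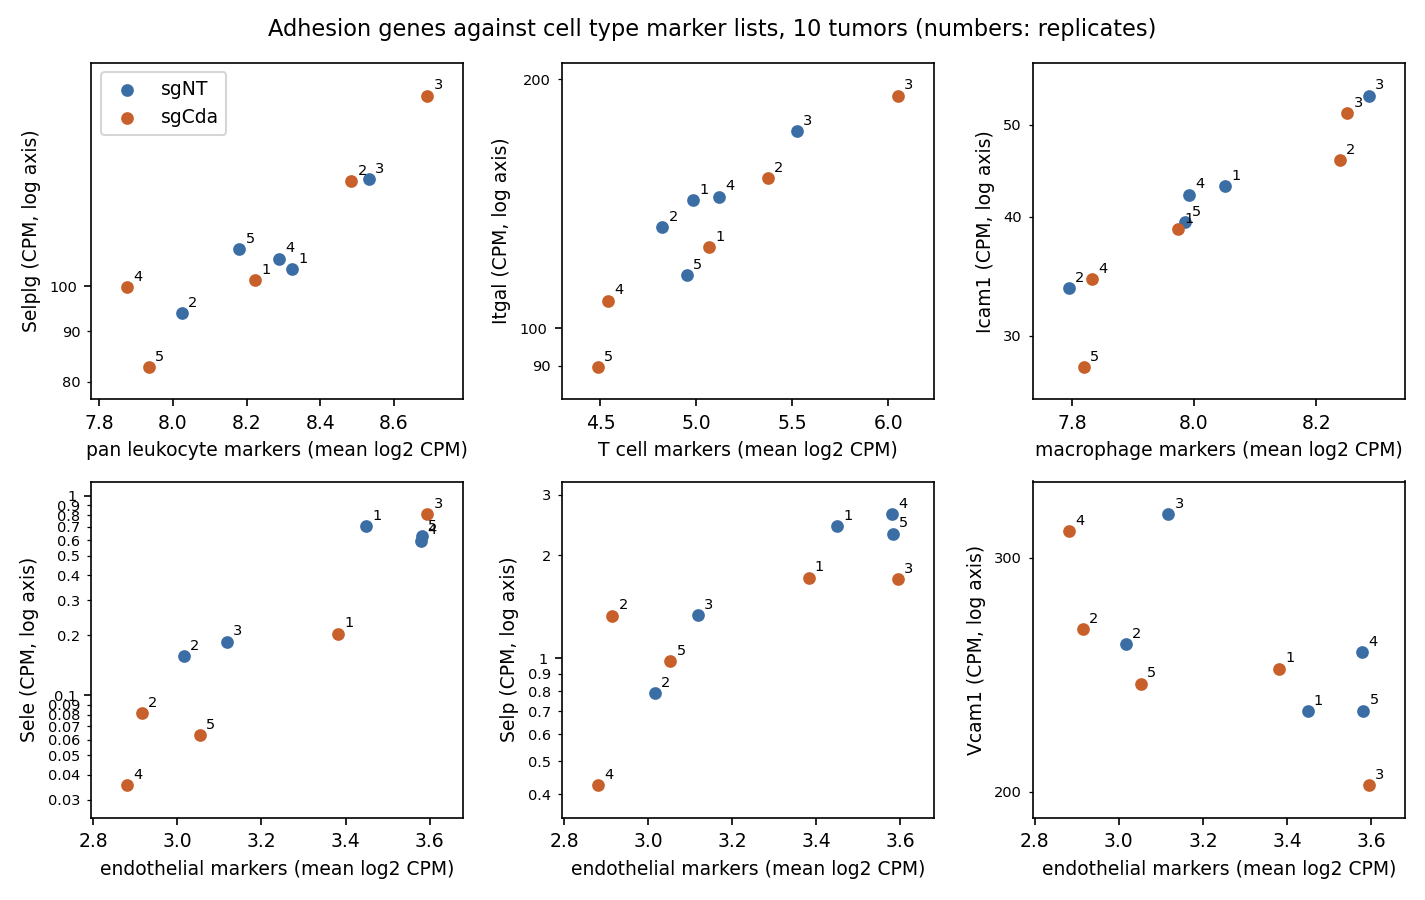
CPM of adhesion genes (log axes) against marker scores (mean log2 CPM) in 5 sgNT and 5 sgCda tumors, with replicate numbers. Selplg, Itgal and Icam1 climb with leukocyte scores in both groups, Selp is lowest in sgCda 4, where the endothelial score is lowest, and Vcam1 is lowest in sgCda 3. Sele is at or under 3 counts in sgCda 2, sgCda 4 and sgCda 5.

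Ratios between members ask whether one changes relative to another within a tumor. None of 6 ratios passed the test between groups (exact permutation of the group labels, two-sided, Benjamini-Hochberg over 6). Relative to Icam2, log2 Sele was -3.30 ± 0.82 in sgNT against -4.33 ± 0.85 in sgCda tumors (n = 5 each, SD, difference -1.03, exact p = 0.0873, adjusted p = 0.476), with 3 sgCda tumors at or under 3 counts of Sele. Selp over Icam2 was -1.30 ± 0.57 and -1.83 ± 0.49 (difference -0.53, exact p = 0.159, adjusted p = 0.476). The other endothelial ratios differed by -0.02 for Icam1 and 0.06 for Vcam1 over Icam2. On the leukocyte side, log2 Itgal over Itgam differed by -0.02 (exact p = 0.817), and Itgb2 over the sum of its 2 alpha chains by 0.06 (exact p = 0.452).

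The genes most like each member over the 10 tumors were found by Pearson's r of log2 CPM among 13269 genes and are given as description. Itgal was most like Nckap1l (r = 0.97), a haematopoietic actin regulator, with Psd4 (r = 0.97) and Ikzf1 (r = 0.97), the lymphoid factor Ikaros, next. Selplg was most like Rac2 (r = 0.98), a haematopoietic GTPase, with Ctsw (r = 0.98) and Evl (r = 0.98) next. Itgam was most like Nlrp3 (r = 0.97), the inflammasome sensor, with Fyn (r = 0.96) and Atp8b4 (r = 0.95) next. Icam1 was most like Cd226 (r = 0.98), an activating receptor of T and NK cells, with Stap1 (r = 0.98) and AW112010 (r = 0.97) next. Selp stood beside Gas6 (r = 0.94), Atp8b1 (r = 0.93) and Tek (r = 0.93), the endothelial angiopoietin receptor. Vcam1 stood beside B2m (r = 0.92), Pon2 (r = 0.91) and H2-Q4 (r = 0.91, rho = 0.745). Of these, B2m and H2-Q4 belong to MHC class I. Itgb2 was most like Ppt2 (r = 0.99), with Ptk2b (r = 0.98), a kinase of integrin signalling, and Cd247 (r = 0.98), the zeta chain of the T cell receptor, next. Icam2 was most like Abcg3 (r = 0.99), with Ppp1cc (r = 0.98) and Cdc34 (r = 0.98) next. These were the extremes of a search over all those genes, with libraries and depth in common.

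The wider adhesion pathway was read from 6 lists of 69 genes, of which 64 passed the filter. In edgeR 0 of 64 had an adjusted p under 0.05, and at an unadjusted p under 0.05 there were 0 higher and 1 lower, beside 1.54% and 0.954% of all genes. Their median log2 fold change was -0.03, with 24 above and 40 below 0, beside 47.1% of all genes below 0.

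Partners of the selectins were measured in 7 of 9 cases, since Glycam1 and Madcam1 did not pass the filter. Podxl, podocalyxin, had a log2 fold change of -0.37 (SE 0.18, 95% CI -0.76 to 0.03) and Spn, leukosialin, of -0.14. Among 10 of 11 genes for sulfation and glycosylation of selectin ligands, the span was -0.13 for Chst2, a sulfotransferase, to 0.07. None passed the test in either list.

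Of the integrin partners, 9 of 10 were tested and 7 were below 0, with Itga5, the alpha chain of a fibronectin receptor, at -0.18 and Itgax, the CD11c chain, at 0.13. All 12 genes of integrin activation were tested and 9 were above 0. Tln1, talin, which opens integrins from inside the cell, was at 632 ± 36.4 CPM in sgNT against 581 ± 41.8 CPM in sgCda tumors (n = 5 each, SD, log2 fold change -0.12), and Rasgrp2, an activator of Rap1, was at 0.28 on the log2 scale. Among 14 of 15 transmigration genes, Cdh5, VE-cadherin of endothelial junctions, was at -0.27 (SE 0.17, 95% CI -0.64 to 0.09) and Pecam1, CD31, at -0.25 (SE 0.19, 95% CI -0.68 to 0.17). None of these passed the test.

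The list on induction of endothelial adhesion molecules mixes inducers, such as cytokines and NF-kB subunits, with the NF-kB inhibitors Nfkbia and Tnfaip3 and other genes. All were tested, and 11 of 12 were below 0, as were 47.1% of all genes. The gene above 0 was the inhibitor Nfkbia, at 0.14, so this is not a count of inducers. Most of these changes were small, with a median of -0.10, and the list was not tested as a set. Il1b, interleukin-1 beta, a classical inducer of Sele, Icam1 and Vcam1, was the single pathway gene under an unadjusted p of 0.05. It measured 25.4 ± 4.88 CPM in sgNT against 18.7 ± 4.18 CPM in sgCda tumors (n = 5 each, SD), and the groups overlapped. That is a log2 fold change of -0.44 (SE 0.17, 95% CI -0.82 to -0.06, unadjusted p = 0.0264, adjusted p = 0.9996, edgeR with Benjamini-Hochberg adjustment), so it did not pass. Without sgNT 1, sgNT 3, sgCda 2 or sgCda 3 the unadjusted p of Il1b in edgeR was 0.0701, 0.0590, 0.0584 and 0.0523. Rela, the p65 subunit of NF-kB, ran from 109 to 117 CPM in sgNT and from 103 to 109 CPM in sgCda tumors, a log2 fold change of -0.07 (SE 0.05), with an unadjusted p = 0.141 in edgeR. Each sgCda tumor lay below each sgNT tumor for Rela, as in 0.601% of all genes without overlap in either direction.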

How the data were processed

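Polyadenylated RNA of 10 s.c. tumors (5 sgNT, 5 sgCda, 1 library each) was sequenced with a stranded kit. The authors removed adapters, aligned reads with TopHat and Bowtie2 to mm10 and deposited raw counts per Ensembl gene from HTSeq (given as 07.2 in the submitters' processing notes, which also name FastQC 0.11.5). The counting strand and annotation release are not given in the sources used here. In the table, 5 summary lines that name no gene held 47.5% of the table's total, which need not be a share of reads. They were left out, and 0 columns belonged to other samples. Symbols matched 32608 identifiers, and coordinates are those of GENCODE on GRCm38.

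Genes were filtered with filterByExpr (minimum count 10, minimum total 15), scaled with TMM and tested with edgeR 4.0.16 in R 4.3.3 (glmQLFit and glmQLFTest, all 10 tumors, no covariate), with Benjamini-Hochberg adjustment over 15299 genes. SEs and 95% intervals were derived from each F statistic. Ratios, marker scores and relations used log2 CPM with a prior count of 2 and permutation tests. Separate sets of tumors were taken where the widest gap exceeded the range on either side, a choice made after seeing the data. Alternatives used DESeq2 1.42.0, limma 3.58.1, other filters and scalings, a replicate block, and removal of tumors. The test was checked on simulated counts. Named genes were the members, Cda, up to 3 genes per pathway list with the smallest p, and the 3 genes most correlated with each member. Members, lists and tests were chosen with earlier results of these data known. Intervals reflect the spread of 5 tumors per group, and low counts limit Selp and Sele.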

Additional observations from a re-analysis of the deposited data

How the results depend on the processing

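No member, pathway gene or ratio passed the threshold in any alternative, and 5 to 6 relations did. Whether the shared replicate numbers pair tumors is not stated. Deviations of same-numbered tumors correlated at -0.03, -0.02, 0.33, -0.43 and 0.34 for numbers 1 to 5. Only sgNT 3 and sgNT 5 were most like the sgCda tumor of their own number, and these few values cannot decide the question. With the replicate block edgeR gave 0 calls, 325 genes at an unadjusted p under 0.05 (382 without the block) and Selp at -0.60. That unadjusted count was 830 without the filter, 719 with quality weights and 747 without sgCda 3 (280 to 747 on leaving out 1 tumor). Fold changes near 0 changed sign, and the cause was not tested. With quality weights Selplg was -0.061 and Itgav 0.033, and without sgCda 3 and 4 (chosen after seeing the data, as were the weights) Selplg was -0.061, log2 Itgal over Itgam 0.015 and r of Icam1 with Vcam1 0.58. With median marker scores, r of Selp with the platelet score was -0.63. Leaving out 1 tumor gave log2 fold changes of -0.21 to 0.0095 for Icam1, -0.28 to 0.098 for Icam2, -0.12 to 0.062 for Vcam1, -0.074 to 0.16 for Selplg, -0.26 to 0.025 for Itgal, -0.30 to 0.025 for Itgam, -0.17 to 0.042 for Itgb2, -0.071 to 0.10 for Cd24a, -0.019 to 0.079 for St3gal6 and -0.021 to 0.24 for Itgax. It gave -0.14 to 0.083 for Icam1 over Icam2, -0.068 to 0.036 for Itgal over Itgam and -0.18 to 0.33 for Vcam1 over Icam2, and r of -0.15 to 0.28 for Selp with the platelet score and -0.44 to 0.32 for Icam1 with Vcam1. Selp was -0.81 to -0.40 on leaving out 1 tumor and -0.38 with quality weights. Pathway genes at an unadjusted p under 0.05 numbered 0 without sgNT 1, 3 without sgCda 3, 4 with quality weights and 6 without sgCda 3 and 4, and 0 passed. Among all genes, 287, 747, 719 and 519 were under that p in these fits, in the same order.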

Other observations

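Other marker lists also showed no difference between groups that passed. The neutrophil score was 2.51 ± 0.28 in sgNT against 2.61 ± 0.49 in sgCda tumors (n = 5 each, SD, two-sided exact permutation p = 0.683), with Ly6g and Stfa2l1 of its 8 genes below the filter on low counts. Dendritic cell markers scored 3.61 ± 0.38 and 3.67 ± 0.44 (exact permutation p = 0.857). Fibroblast markers scored 7.88 ± 0.47 and 7.77 ± 0.46 (exact permutation p = 0.698), platelet markers 0.81 ± 0.18 and 0.84 ± 0.10 (exact permutation p = 0.794), and epithelial markers 3.95 ± 0.26 and 4.14 ± 0.26 (exact permutation p = 0.262). Each of these lists had an adjusted p of 0.984.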
